A study of Mus musculus with 86 samples.

Results

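Splicing factors, heterogeneous nuclear ribonucleoproteins (hnRNPs) and DEAD-box and DEAH-box RNA helicases were followed in 4 organs of mice with 1 disrupted copy of Dll1, a ligand of the Notch receptors. They were taken as every gene whose platform symbol begins with Hnrnp, Srsf, Snrp, Sf3a, Sf3b, Ddx, Dhx or Prpf, which gave 82 of the 9030 gene symbols and 125 of the 20794 probes on the array. The 82 genes comprised 25 Ddx and 12 Dhx helicases, 13 hnRNPs, 10 Prpf pre-mRNA processing factors, 8 Snrp proteins of the small nuclear ribonucleoproteins (snRNPs), 8 Srsf serine and arginine-rich (SR) proteins and 6 subunits of the U2 snRNP complexes SF3a and SF3b. Each gene is described by the probe with the most values over the 86 arrays, and the other probes of the 31 genes that had several are given as a check.

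RNA came from male mice heterozygous for a Dll1 allele in which a lacZ insertion disrupts the coding sequence, written Dll1+/-. Liver, thymus, spleen and brain were taken at 15 weeks from the C3H line and at 16 weeks from the 129SvJ/Iso line. Each array compared a Dll1+/- sample with a pool of RNA from wild-type males of the same line and organ, in a 2-colour hybridisation of Cy3-labelled and Cy5-labelled cDNA to spotted cDNA probes. In C3H, 5 mice were measured in each organ on 10 arrays (9 in spleen, where mouse 1 had 1 array), and in 129SvJ/Iso 4 mice in liver on 12 arrays, 5 in spleen on 15 and 4 in brain on 14. The 129SvJ/Iso thymus was measured only as 1 pool of Dll1+/- RNA against 1 wild-type pool on 6 arrays, which are technical repeats. By the labels, RNA of 5 wild-type C3H mice or of 4 wild-type 129SvJ/Iso mice was pooled, although the labelling protocol speaks of a larger pool. Each pool is 1 control sample, so the variation among wild-type mice does not enter a test of the ratio against 0, and the C3H organs share their wild-type mice.

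All values are log2 ratios of Dll1+/- over wild type, so that −1 is a halving, and they are given as mean ± SD over mice, with n = 5 in C3H unless stated. The labels do not name the numerator of the ratio. The direction was set by genes named in the study as reduced in liver and thymus of C3H, 2 of which (Ddx6 and Srsf5, both for thymus) are among the 82, so their sign is not independent of that choice. In C3H spleen and 129SvJ/Iso brain it was uncertain whether the ratios of both dye orientations point the same way. The result with the sign turned on 1 orientation is given for these groups alone. Line differences, organ differences and counts over organs use their arrays as deposited, without a fit of the turned sign. A ratio holds no level, so neither the abundance of a transcript nor the identity of an organ could be read from it. Spots at a constant extreme value were treated as missing, and the mean share of values not used was 3.07 to 10.2% in the C3H groups and 21.93 to 26.96% in the 129SvJ/Iso groups. The 2 Dll1 probes had means between −0.81 and 0.37 over the groups, did not pass at an adjusted p under 0.05 in any, and are not known to lie in the disrupted part.

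Splicing removes introns from pre-mRNA in the spliceosome, which is built from snRNPs and many further proteins. SR proteins usually bind exons and promote the use of nearby splice sites, whereas hnRNPs coat nascent RNA and often act against it. Many SR and hnRNP genes also control their own mRNA by splicing in exons that send it to decay. DEAD-box and DEAH-box helicases use ATP to remodel RNA and RNA-protein complexes, in the spliceosome, in the nucleolus where ribosomes are made, and in the cytoplasm in translation and mRNA decay.

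Among the genes named by rule in each group, Srsf5, Srsf3, Hnrnpu and Ddx3x were lower at an unadjusted p under 0.05 in both liver and thymus of C3H. Their promoters, from 250 bases before to 50 bases after the transcript start in RefSeq (build GRCm38.p6), are shown because these 4 genes recur in the results. Capitals mark the letters CCGGAAG on either strand, a core of the sites of ETS factors, CACGTG, an E-box, and TGGGAA, a core of the site of Rbpj, through which Notch acts on its target genes.
Srsf5 (chr12:80945249-80945548, plus strand): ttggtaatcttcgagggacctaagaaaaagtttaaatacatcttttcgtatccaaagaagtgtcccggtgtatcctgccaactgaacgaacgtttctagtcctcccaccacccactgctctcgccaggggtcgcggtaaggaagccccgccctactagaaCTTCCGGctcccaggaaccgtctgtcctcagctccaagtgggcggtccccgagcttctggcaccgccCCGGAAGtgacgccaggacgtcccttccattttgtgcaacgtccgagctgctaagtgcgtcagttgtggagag
Srsf3 (chr17:29032410-29032709, plus strand): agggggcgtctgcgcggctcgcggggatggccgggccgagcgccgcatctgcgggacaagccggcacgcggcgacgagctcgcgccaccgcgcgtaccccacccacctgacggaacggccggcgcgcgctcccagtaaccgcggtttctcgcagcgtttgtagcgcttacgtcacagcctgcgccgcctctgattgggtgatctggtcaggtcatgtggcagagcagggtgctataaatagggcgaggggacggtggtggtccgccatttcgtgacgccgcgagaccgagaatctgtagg
Hnrnpu (chr1:178337766-178338065, minus strand): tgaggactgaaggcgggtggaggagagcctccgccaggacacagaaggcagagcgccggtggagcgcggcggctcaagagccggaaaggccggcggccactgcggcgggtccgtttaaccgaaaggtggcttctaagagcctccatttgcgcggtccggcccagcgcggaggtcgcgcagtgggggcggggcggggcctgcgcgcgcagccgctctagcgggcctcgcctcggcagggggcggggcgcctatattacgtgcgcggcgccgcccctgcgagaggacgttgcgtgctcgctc
Ddx3x (chrX:13280772-13281071, plus strand): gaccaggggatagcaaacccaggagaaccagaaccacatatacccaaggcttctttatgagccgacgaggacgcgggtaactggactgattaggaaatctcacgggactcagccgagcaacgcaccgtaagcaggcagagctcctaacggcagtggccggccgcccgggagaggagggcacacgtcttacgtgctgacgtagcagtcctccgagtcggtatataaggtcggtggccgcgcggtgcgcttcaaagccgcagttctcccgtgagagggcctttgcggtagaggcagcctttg
Only Srsf5 held one of these motifs, CCGGAAG, which occurred 2 times in it. Promoters were found for 72 of the 82 genes, some with several starts, giving 96 promoters. CCGGAAG was present in 35.4% of these against 8.86% of all 32851 promoters in the same table, CACGTG in 15.6% against 7.15%, and TGGGAA in 20.8% against 25.6%. These are matches of letters, not measured binding.

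In thymus of C3H, 16 of the 82 genes were lower in Dll1+/- mice at an unadjusted p under 0.05 and 0 were higher. Among all 20003 probes tested there, 5.31% were lower and 2.82% higher at that threshold, so the share of lower genes, 19.5%, was above the background. Over all named genes with 1 probe each, a comparison added after the data had been seen, 5.80% were lower and 2.35% higher. The median of the 82 genes was −0.08 against 0.00 over all probes, and 68.3% of them lay below 0 against 49.7% of the probes. The median over the genes was below 0 in each of the 5 mice, between −0.11 and −0.04, with an SD over mice of 0.03. No single gene passed after adjustment over all probes (limma with Benjamini-Hochberg, smallest adjusted p = 0.50), nor did any probe (0.0%), and the counts that follow are at the unadjusted threshold.

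**Figure D1:**
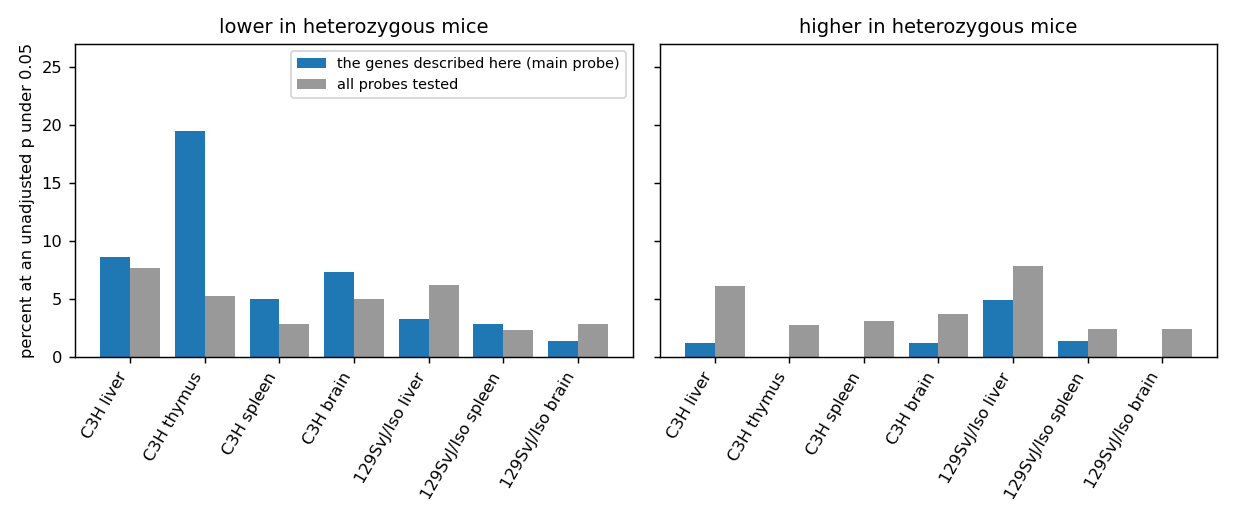
Percent of genes described here (blue, main probe) and of all probes tested (grey) that were lower (left) or higher (right) in Dll1+/- mice at an unadjusted p under 0.05, for the 7 groups with separate mice. C3H thymus is the group where the blue bar for lower genes, 19.5%, exceeds the grey bar of 5.31% by most.

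The 16 genes comprised 6 hnRNPs, 4 SR genes, 5 helicases and 1 Prpf factor. All 8 SR genes in C3H thymus had means below 0 (median −0.29), with 4 of them lower at the unadjusted threshold. Of the 13 hnRNPs, 10 had means below 0 (median −0.23) and 6 were lower. Among the 25 Ddx helicases 3 were lower (median −0.05), among the 12 Dhx helicases 2 (median −0.03), and among the 10 Prpf factors 1 (median −0.02). None of the 8 Snrp genes (median −0.08) or of the 6 SF3 subunits (median 0.06) was lower. Whether families differed from each other was not tested.

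**Figure D2:**
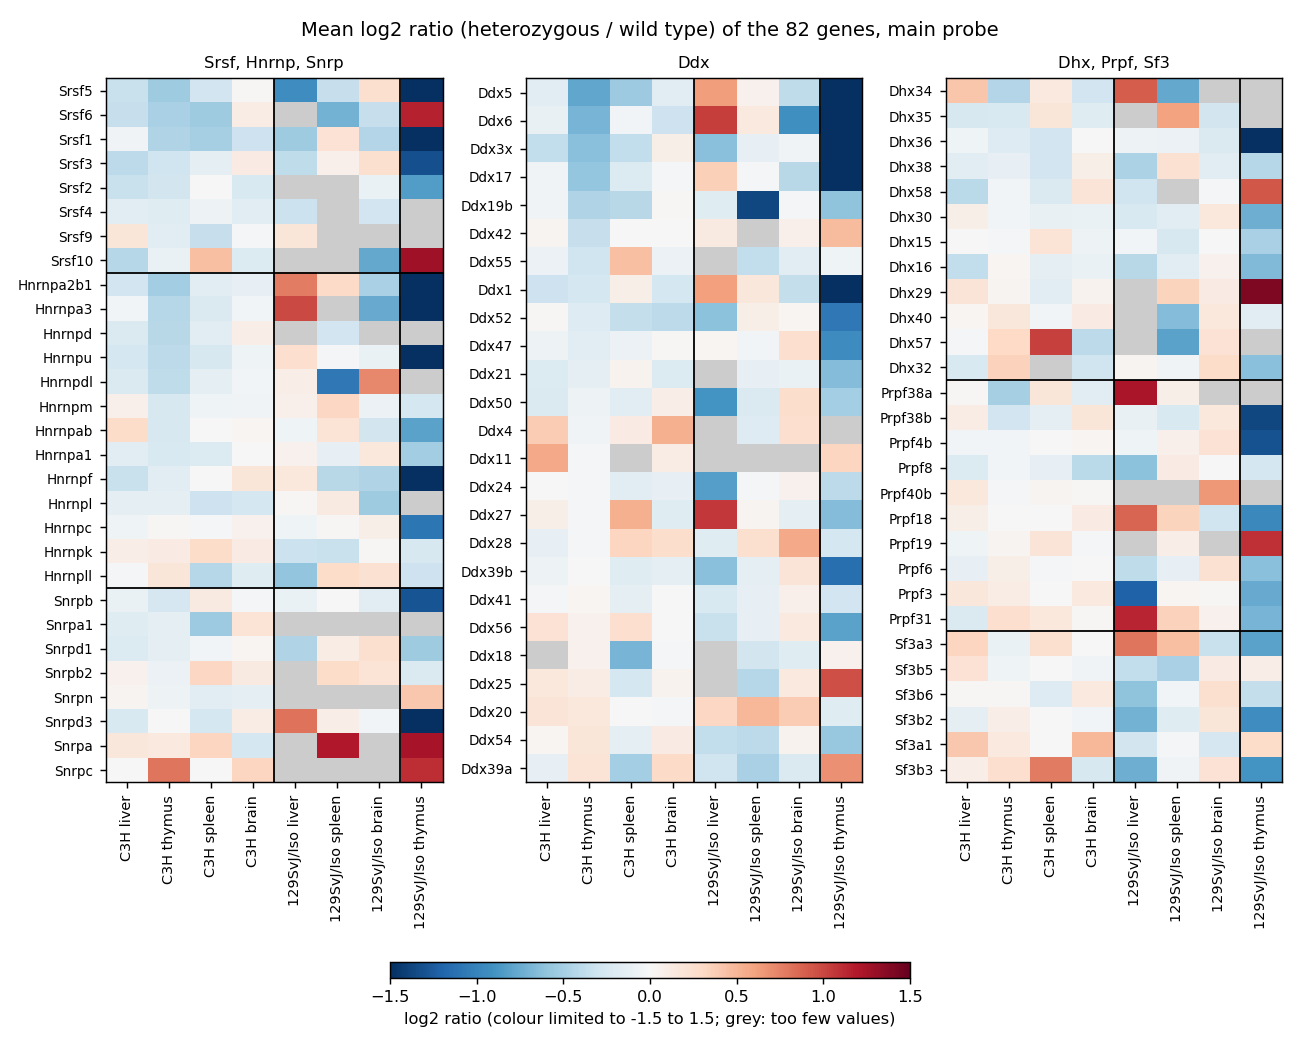
Mean log2 ratio of each of the 82 genes (rows, grouped by family and ordered by C3H thymus) in the 8 groups (columns). Blue is lower and red higher in Dll1+/-, the colour scale ends at −1.5 and 1.5, and grey marks too few values. The top of the Srsf, Hnrnp and Ddx blocks is blue in C3H thymus and mostly deep blue in the 129SvJ/Iso thymus pools. In the pools Srsf6 is red at 1.16, and Hnrnpd and Hnrnpdl are grey.

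Ddx5 and Ddx17 are close paralogues that unwind RNA in the spliceosome and also act with transcription factors. In C3H thymus Ddx5 had −0.85, −0.27, −0.72, −0.80 and −1.24 in mice 1 to 5, and Ddx17 had −0.84, −0.26, −0.64, −0.47 and −0.67. Both were below 0 in all 5 mice and weakest in mouse 2. Their means were −0.78 ± 0.34 and −0.58 ± 0.22 (limma adjusted p = 0.50 for each). A second Ddx17 probe gave −0.53 ± 0.15, and the other Ddx5 probes −0.47 ± 0.38 and −0.38 ± 0.31, the last with 1 mouse above 0. Ddx3x, an X-linked helicase that helps ribosomes scan structured mRNAs, had −1.15, −0.42, −0.34, −0.51 and −0.71, a mean of −0.62 ± 0.32 (limma adjusted p = 0.53).

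Hnrnpd, also called AUF1, binds AU-rich mRNAs and directs many of them to decay. Its ratios in C3H thymus were −0.47, −0.35, −0.36, −0.43 and −0.45, which is the smallest spread among the 10 genes named in this organ (mean −0.41 ± 0.06, limma adjusted p = 0.50). Hnrnpdl, its closest relative, had −0.38 ± 0.19. The A/B-type proteins Hnrnpa3 and Hnrnpa2b1, which bind splicing silencers and accompany mRNA to the cytoplasm, had −0.43 ± 0.15 and −0.52 ± 0.43. Hnrnpa2b1 was uneven, with −0.998, −0.69 and −0.77 in mice 1, 4 and 5 but −0.05 and −0.09 in mice 2 and 3. Hnrnpu, a nuclear scaffold protein that also regulates splicing, had −0.39 ± 0.26 by its main probe, −0.21 ± 0.07 by a second and −0.12 ± 0.23 by another. Hnrnpm completed the hnRNPs counted as lower, with −0.24 ± 0.19 and, by its other probe, −0.19 ± 0.10.

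Among the SR proteins, Srsf5 had −0.51, −0.64, −0.53, −0.12 and −0.89 in C3H thymus (mean −0.54 ± 0.28, limma adjusted p = 0.55). Its other probe lay lower still, at −0.75 ± 0.25 with all 5 mice below 0. Srsf3, one of the smallest SR proteins, which also takes part in mRNA export, had −0.30 ± 0.16 with all 5 mice below 0, but its other probe gave −0.09 ± 0.14. Srsf1, the founding SR protein, differed between its probes too, with −0.45 ± 0.38 by the main probe and 0.08 ± 0.19 by the other. Srsf2 had −0.27 ± 0.22.

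The remaining genes at the unadjusted threshold in C3H thymus were the Dhx helicases Dhx35 (−0.23 ± 0.12) and Dhx34 (−0.43 ± 0.40), of which Dhx34 acts in nonsense-mediated mRNA decay, and Prpf38b, related to a factor that activates the spliceosome (−0.29 ± 0.21). Dhx34 was above 0 in mouse 5. Both other Prpf38b probes were below 0 as well, with −0.23 ± 0.14 and −0.38 ± 0.11. Each of the 16 genes was below 0 on average in both dye orientations. Over all 82 genes 34 were below 0 in both orientations, 7 above 0 in both and 41 had opposite signs. Of the 31 genes with several probes tested, 18 had the same sign by all of them, with a median gap of 0.21 between the highest and the lowest probe mean.

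**Figure D3:**
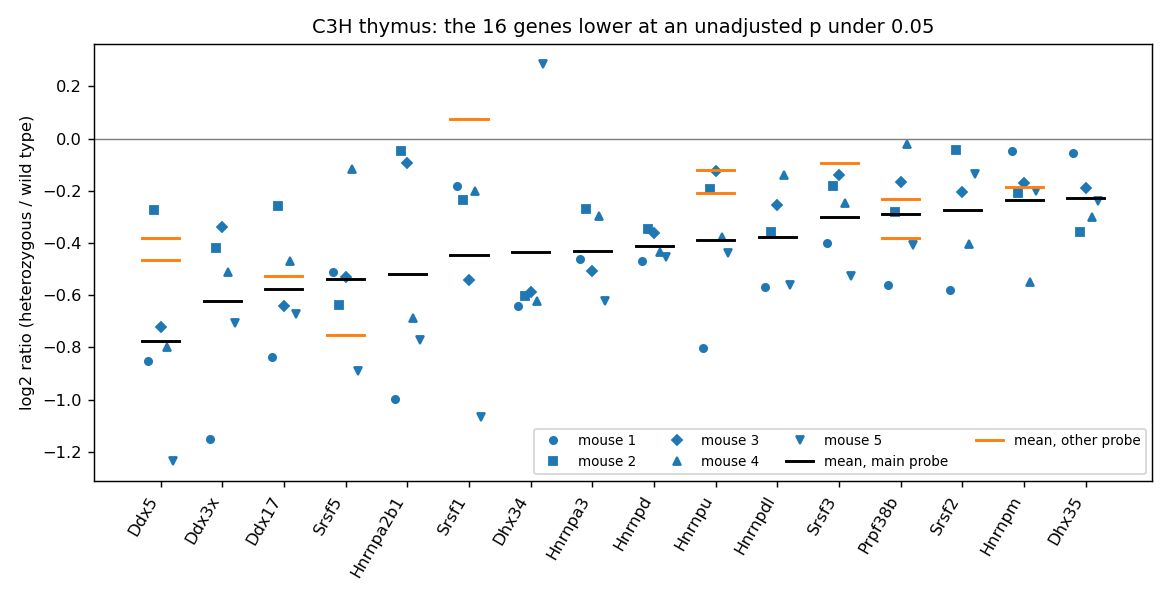
Log2 ratio in each C3H thymus (symbols, mouse 1 to 5) for the 16 genes that were lower at an unadjusted p under 0.05, with the mean of the main probe in black and the means of other probes in orange. Only Dhx34 in mouse 5 lies above 0 among the single values, and only Srsf1 has a second probe above 0.

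Ddx6 activates decapping of mRNA and is a core protein of P-bodies, where untranslated mRNA gathers. The study lists it as lower in C3H thymus on these same mice, so its direction there is not independent evidence. Its main probe had −1.09, 0.13, 0.25, −0.71 and −2.04 in C3H thymus, with 2 of 5 mice above 0 (mean −0.69 ± 0.94, limma adjusted p = 0.64). A second probe was below 0 in all 5 mice at −0.73 ± 0.21 (limma adjusted p = 0.50), while the remaining probes gave −0.12 ± 0.21 (n = 4) and −0.47 ± 0.84. The probes of this gene thus disagreed by up to 0.61 between means, the widest gap among the genes with several probes in this organ.

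With all arrays fitted and the mouse as a random block, Ddx5 (limma adjusted p = 0.0405) and Hnrnpa3 (limma adjusted p = 0.0405) passed in C3H thymus, among 33 of all probes. That fit found almost no correlation between arrays of a mouse (−0.02), so it counted technical repeats nearly as separate mice. The cells of the thymus are mostly immature T cells, and fewer cells of a type and less RNA per cell cannot be told apart in whole-organ RNA. Of 12 T cell and thymocyte markers tested in C3H thymus, 4 were lower (Satb1, Ikzf1, Ets1 and Dntt) and 0 higher, with a median of −0.18 and medians of −0.30 to 0.02 in single mice. Of 9 neuron markers 4 were higher, with a median of 0.27, while 0 of 6 macrophage markers passed and 1 of 5 B cell markers was higher. The part of these markers in the result was not tested.

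Of 50 further splicing factors outside the 82 genes tested in C3H thymus, 7 were lower and 0 higher, with 38 below 0 and a median of −0.07. The lower ones were Sfpq (−0.67 ± 0.52), a paraspeckle protein, the SR protein kinase Srpk1 (−0.39 ± 0.14), the tissue splicing regulators Mbnl1 (−0.39 ± 0.14), Celf2 (−0.36 ± 0.08) and Qk (−0.27 ± 0.13), the U5 snRNP GTPase Eftud2 (−0.28 ± 0.13) and Rbm10 (−0.24 ± 0.15). Among 23 genes from a list for mRNA decay and P-bodies, 3 were lower and 0 higher, with a median of −0.20. They were the deadenylation cofactors Btg2 (−0.41 ± 0.10) and Btg1 (−0.36 ± 0.19) and the P-body protein Lsm14a (−0.43 ± 0.29). Of 56 cytosolic ribosomal protein genes 7 were lower and 0 higher (median −0.07). These counts stand against the 5.31% lower and 2.82% higher of all probes, and the lists were not tested as groups.

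In C3H liver, 7 of 81 genes were lower and 1 higher at the unadjusted threshold, against 7.66% and 6.11% of all 20335 probes. The share of lower genes, 8.64%, was thus near the background. The genes had a median of −0.06 against 0.03 over all probes, with an SD over mice of 0.09. SR genes again lay lowest, with a median of −0.34 and 7 of 8 below 0, but only Srsf5 and Srsf3 were lower at the threshold.

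Srsf5 had −0.31, −0.35, −0.49, −0.32 and −0.22 in the 5 C3H livers, so that all mice lay below 0 within a narrow range (mean −0.34 ± 0.10, limma adjusted p = 0.36). Its other probe gave −0.44 ± 0.15. Ddx3x had −0.44, −0.06, −0.44, −0.52 and −0.39 (−0.37 ± 0.18), with mouse 2 near 0. Srsf3 (−0.39 ± 0.27), Hnrnpu (−0.27 ± 0.14), Ddx1 (−0.31 ± 0.25), a subunit of the tRNA ligase complex, and the nucleolar helicase Ddx50 (−0.22 ± 0.15) were also below 0 in all 5 mice. Other probes gave −0.26 for Srsf3 and −0.52 for Ddx1, while those of Hnrnpu lay above its main probe, up to 0.04. Dhx58, or LGP2, which regulates the sensing of viral RNA, had −0.40 ± 0.37 with 1 mouse above 0. Ddx4, the germ cell helicase also known as Vasa, was the one gene counted as higher, with 0.39 ± 0.34 and all 5 mice above 0.

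The count of 8 genes in C3H liver moved with single mice. Without mouse 2 there were 15 genes at the threshold, and without mouse 3 or mouse 4 there were 5. Of 10 hepatocyte markers 6 were lower and 0 higher in these livers, with a median of −0.36 and medians of −0.91 to 0.04 in single mice, and 21 of 57 ribosomal protein genes were lower and 1 higher (median −0.25). Their part in the liver values of the splicing genes was not tested. Other splicing factors had 1 lower and 1 higher of 51 (median 0.03).

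In C3H spleen, 4 of 80 genes were lower and 0 higher, against 2.86% and 3.08% of 18546 probes, with a median of −0.07 against 0.00 over all probes. Without mouse 1, 2 or 3 the count was 2, and without mouse 4 or 5 it was 3. Ddx5 had −0.34, −0.36, −0.97, −0.87 and −0.21 in the 5 mice, all below 0 (−0.55 ± 0.35, limma adjusted p = 0.80). Srsf1 (−0.49 ± 0.33) and Dhx36 (−0.29 ± 0.08), which unwinds G-quadruplexes, were below 0 in all 5 mice as well. The other Srsf1 probe had a mean of 0.05. The nucleolar helicase Ddx18 had −0.70 ± 0.49 (n = 4). With the sign turned on the Cy5 arrays none of these 4 was at the threshold. Instead Dhx57, Prpf38a and Dhx34 were higher and 0 genes lower, against 4.19% and 2.02% of the probes. B cell markers (2 of 5 lower, median −0.24) and macrophage markers (1 of 6 lower, median −0.19) were below 0 beside these values, and their part was not tested.

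In C3H brain, 6 of 82 genes were lower and 1 higher, against 5.03% and 3.73% of 20201 probes, and the median was −0.01 against 0.01 over all probes. Srsf1 had −0.25, −0.26, −0.17, −0.38 and −0.52, all below 0 (−0.31 ± 0.14, limma adjusted p = 0.56), but its other probe had a mean of 0.13. Ddx6 was below 0 in all 5 mice by 3 of its 4 probes, with −0.31 ± 0.19 by the main one, −0.21 ± 0.07 and −0.26 ± 0.18, and by the remaining probe it had −0.20 ± 0.26. Hnrnpl, which binds CA repeats (−0.27 ± 0.17), and Ddx1 (−0.26 ± 0.23) were below 0 in each mouse too. By its other probe Ddx1 had a mean of −0.02. Prpf8, the U5 snRNP protein at the heart of the spliceosome (−0.40 ± 0.41), and the SF3b subunit Sf3b3 (−0.23 ± 0.20) were below 0 in 4 of 5 mice. The SF3a subunit Sf3a1 was the one gene counted as higher, with 0.50 ± 0.44 and 4 of 5 mice above 0, but its other probe had a mean of −0.01. Without mouse 3 the count was 11, and without mouse 4 or mouse 5 it was 4. Other splicing factors had 3 lower and 1 higher of 52.

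Over the C3H organs, 18 genes were lower at the threshold in 1 organ, 6 in 2 and 1 in 3. Over all probes tested in any of these organs 15.1% were lower in 1 organ and 2.41% in several, against 22.0% and 8.54% of the 82 genes, and over named genes with 1 probe each 16.9% and 2.85%. The gene counted in 3 was Srsf1 (thymus, spleen and brain), by its main probe. The other Srsf1 probe had means above 0 in each of these organs (0.08, 0.05 and 0.13). Those counted in 2 were Srsf5, Srsf3, Hnrnpu and Ddx3x in liver and thymus, Ddx5 in thymus and spleen, and Ddx1 in liver and brain. Of the 79 genes tested in all 4 organs, 13 had a mean below 0 in each by the main probe. Among them were Ddx5, Ddx17, Ddx6, Srsf1, Srsf4 and 6 hnRNPs. By the main probe 3 had a mean above 0 in each (Hnrnpk, Sf3a1 and Snrpc). Other probes lay above 0 for Ddx5 (0.16) and Ddx17 (0.02) in brain, Ddx6 (0.10) in spleen, and Hnrnpu in liver (0.04) and brain (0.21). The other Sf3a1 probe lay below 0 in brain (−0.01). Of all probes tested in the 4 organs 7.88% were below 0 in each and 11.4% above 0 in each, and of named genes with 1 probe each 8.72% and 9.01%. These backgrounds were added after the data had been seen, and no test was made. Because the organs come from the same mice and share wild-type mice, these counts are not independent.

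A difference among the C3H organs was tested by the moderated F statistic over liver, thymus, spleen and brain. At an unadjusted p under 0.05 there were 6 of 79 genes, against 11.4% of 18031 probes, and 0 of the 79 were among the 41 probes (0.227%) that passed after adjustment. These 6 were Ddx17, Ddx5, Ddx3x, Srsf5, Srsf3 and Hnrnpd (limma adjusted p = 0.24 to 0.40). With the mouse as a block, since the organs come from the same mice, 5 were left and Hnrnpd was no longer at the threshold (limma adjusted p = 0.35 to 0.50 for the 6). Ddx17, low in thymus, had −0.06 ± 0.13 in liver, −0.21 ± 0.23 in spleen and −0.02 ± 0.28 in brain. By its other probe liver was about as low as thymus, at −0.50 and −0.53, with −0.10 in spleen and 0.02 in brain. Ddx5 had −0.17 ± 0.27 in liver and −0.16 ± 0.15 in brain, so that thymus and spleen were its low organs. Ddx3x had −0.37 ± 0.50 in spleen and 0.09 ± 0.18 in brain, Srsf5 −0.29 ± 0.32 and 0.02 ± 0.17, and Srsf3 −0.15 ± 0.29 and 0.13 ± 0.25. Hnrnpd had −0.22 ± 0.24 (n = 4) in liver, −0.16 ± 0.26 in spleen and 0.10 ± 0.25 in brain. Within each gene the ranges of neighbouring organs overlapped, and in brain every mean but those of Ddx5 and Ddx17 was above 0.

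**Figure D4:**
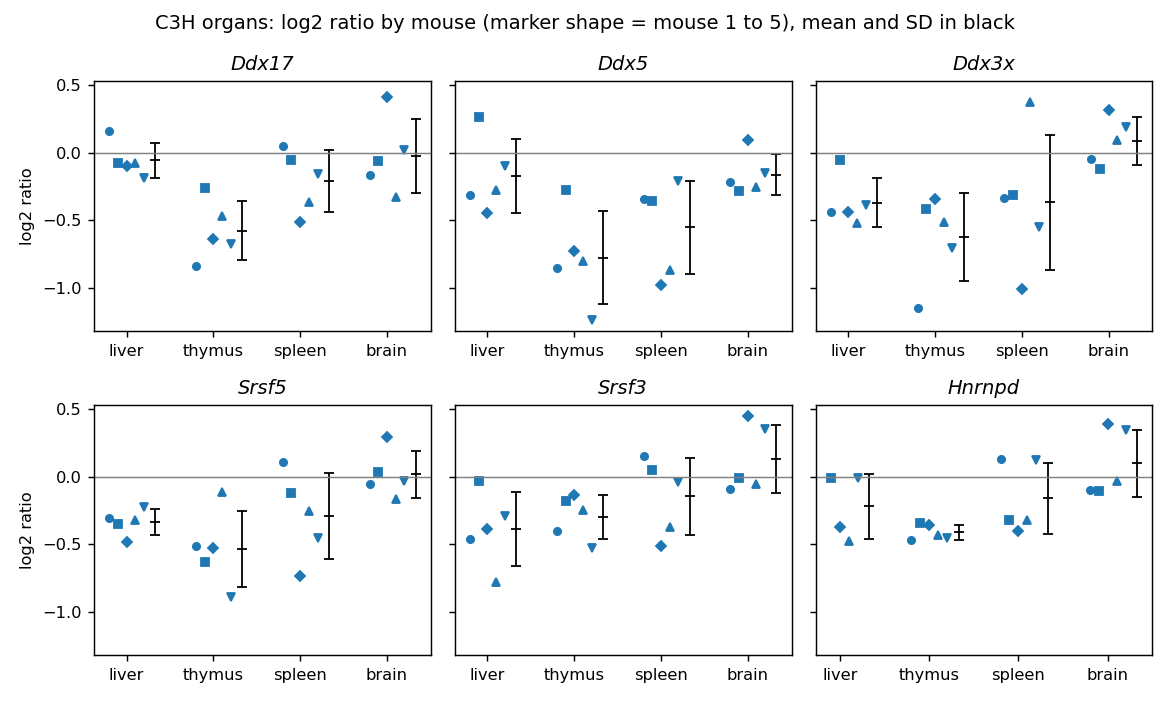
Log2 ratio in single C3H mice (blue symbols, mouse 1 to 5) in 4 organs, with mean and SD in black, for the 6 genes at an unadjusted p under 0.05 among organs (Hnrnpd not with the mouse as a block). Thymus holds the lowest mean in each panel except Srsf3, where liver is lowest at −0.39.

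In 129SvJ/Iso more values were missing, and 61 genes could be tested in liver, 70 in spleen and 72 in brain. Liver had 2 lower and 3 higher genes, against 6.25% and 7.86% of 13462 probes, spleen 2 and 1, against 2.35% and 2.42% of 15630, and brain 1 and 0, against 2.85% and 2.47% of 15914. None passed after adjustment (limma, smallest adjusted p = 0.35 in liver, 0.92 in spleen and 0.79 in brain). The medians of the genes were −0.11, −0.03 and 0.03 against 0.07, −0.01 and 0.02 over all probes, with SDs over mice of 0.14, 0.19 and 0.08. The median SD of a gene over mice was 0.60, 0.49 and 0.34, against 0.21 to 0.40 in the C3H organs.

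Ddx50 had −0.83, −0.88, −1.15 and −0.74 in the 4 livers of 129SvJ/Iso, all below 0 (−0.90 ± 0.17, limma adjusted p = 0.35). Sf3b2, an SF3b subunit, had −0.71 ± 0.19 and was below 0 in all 4 mice. The SF3a subunit Sf3a3 (0.81 ± 0.53) and Prpf18, a factor of the second splicing step (0.87 ± 0.70), were above 0 in all 4, although a second Prpf18 probe had a mean of 0.06. Ddx6 was higher, with 1.23, 0.26 and 1.61 in 3 mice (1.03 ± 0.70, n = 3), and its second probe gave 1.495 ± 1.403 (n = 3), while the others gave 0.28 ± 0.31 (n = 3) and −0.92 ± 0.57 (n = 2). Srsf5 had −0.93 ± 0.91 (n = 3) by its main probe and 0.02 ± 0.13 (n = 3) by the other. With the mouse as a random block over arrays, Ddx50 (limma adjusted p = 0.0315), Ddx6 (limma adjusted p = 0.0391) and Ddx39b (limma adjusted p = 0.0438) passed, among 793 of all probes. The correlation between arrays of a mouse was only 0.11 there, so the arrays again counted nearly as separate mice, and Ddx39b (−0.63 ± 0.39, n = 4) was not at the unadjusted threshold in the fit over mice. Of 8 hepatocyte markers 7 were lower, with a median of −0.94, and of 46 ribosomal protein genes 18 were lower (median −0.74), and their part was not tested.

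In spleen of 129SvJ/Iso, Dhx40, a helicase of uncertain role, had −0.22, −0.67, −0.35, −0.59 and −1.39 (−0.64 ± 0.46, n = 5, limma adjusted p = 0.92). The other Dhx40 probe had a mean of −0.10. Hnrnpdl (−1.07 ± 0.82, n = 3) was also lower and the U1 snRNP protein Snrpa (1.20 ± 0.83, n = 3) higher. A second Snrpa probe had a mean of −0.54. Srsf5 had −0.34 ± 0.51 (n = 5) and −0.57 ± 0.48 (n = 4) by its probes, and Ddx6 0.15 ± 0.58 (n = 5). In brain Srsf10, an SR protein that represses splicing when dephosphorylated, had −0.58, −0.47, −0.29 and −1.73 (−0.77 ± 0.65, n = 4). Averaged over mice it had 0.43 with heterozygous RNA in Cy3 and −1.96 with it in Cy5, so the direction rested on 1 dye orientation. With the sign turned on the Cy5 arrays there were 4 lower and 3 higher genes, against 4.91% and 12.2% of the probes, and Srsf10 was higher at 1.20. Ddx6 had −0.92 ± 1.23 and Srsf5 0.24 ± 0.32 in brain (n = 4 each).

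Differences between the lines were tested within an organ by subtracting the ratio of 129SvJ/Iso from that of C3H. Liver had 6 lower and 7 higher of 61 genes, against 11.2% and 8.08% of 13201 probes, and 0 of the 61 were among the 38 probes (0.288%) that passed after adjustment. The smallest p belonged to Ddx6, with −0.11 in C3H and 1.03 in 129SvJ/Iso, a difference of −1.15 ± 0.33 (SE, limma adjusted p = 0.12). Hnrnpa2b1 (−1.06 ± 0.35, SE) and Ddx5 (−0.81 ± 0.26, SE) were likewise below 0 in C3H and above 0 in 129SvJ/Iso. The 3 Ddx5 probes disagreed in 129SvJ/Iso liver, from −1.24 to 0.63 with the main probe highest. In C3H liver they ranged from −0.35 to −0.17. Ddx50 was below 0 in both lines and less so in C3H (0.68 ± 0.21, SE), and Prpf3, a U4/U6 snRNP protein, had 0.17 in C3H and −1.21 in 129SvJ/Iso (1.39 ± 0.47, SE). Spleen had 1 lower and 0 higher of 69 genes, Srsf1 (−0.72 ± 0.31, SE), against 3.17% and 3.86% of 14031 probes. The other Srsf1 probe had the opposite order, with 0.05 in C3H and −0.62 in 129SvJ/Iso, against −0.49 and 0.22 by the main probe. In brain 2 were lower and 1 higher of 72, against 4.92% and 4.98% of 15487, namely Dhx32, Hnrnpll and Sf3a1 (limma adjusted p = 0.41 to 0.48). The ratios of each line stand against that line's own pool, so the tests compare ratios and not levels.

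Among liver, spleen and brain of 129SvJ/Iso, 12 of 54 genes were at an unadjusted p under 0.05, against 16.4% of 9717 probes, and 0 passed after adjustment. Ddx50 (limma adjusted p = 0.23) led, with −0.90 ± 0.17 in liver, −0.21 ± 0.50 in spleen and 0.27 ± 0.24 in brain. Sf3b2, Hnrnpa2b1, Sf3a3 and Ddx6 followed (limma adjusted p = 0.23 to 0.25). Hnrnpa2b1 was above 0 in liver (0.77 ± 0.68) and spleen (0.28 ± 0.39) and below 0 in brain (−0.49 ± 0.49). With the mouse as a block 2 of the 12 counts were left, and which mice share an animal comes from the labels' mouse identities.

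In the pools of 129SvJ/Iso thymus, which allow no test, 41 of the 70 genes measured on at least 4 arrays were past −0.5 and 9 past 0.5, against 20.0% and 38.9% of 16186 probes. Over all named genes with 1 probe each the shares were 24.3% and 32.5%. The genes had a median of −0.63 against 0.24 over all probes. The array medians of the genes lay between −0.84 and −0.43. On all 6 arrays with 1 sign were 26 genes, all of them below 0, among the 46 genes with a value on every array. Of the 6819 probes with 6 values, 1533 were below 0 on each array and 340 above 0 on each.

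Hnrnpa2b1 had −3.45, −3.78, −3.50, −3.93, −3.37 and −3.70 on the 6 pool arrays, the lowest mean of the genes at −3.62 ± 0.22 (SD over technical arrays, as for all pool values). Ddx17 followed with −3.71, −3.44, −2.81, −2.53, −3.34 and −3.07 (−3.15 ± 0.43), Ddx5 with a mean of −2.90 ± 0.47 and Hnrnpu with −2.64 ± 0.35. Each of these 4 was low in both dye orientations. Ddx3x (−2.36 ± 0.39), Srsf5 (−1.56 ± 0.54) and Srsf3 (−1.32 ± 0.40) were below 0 on all 6 arrays as well. Other probes were often nearer 0, with 0.21 ± 2.01 for Ddx17, −0.94 ± 0.33 and −0.20 ± 1.81 for Ddx5, −0.58 ± 0.38 and −1.24 ± 0.29 for Hnrnpu, and −1.30 ± 2.63 for Srsf5. Ddx6 had −1.75 ± 1.56, −3.33 ± 1.31, 0.73 ± 2.37 and 0.40 ± 0.67 by its 4 probes. Among the families, all 10 hnRNPs measured on at least 4 arrays had means below 0 (7 past −0.5). Of those on fewer arrays, Hnrnpl had −3.01, −4.55 and −4.20, Hnrnpd 0.51, −0.67 and 3.51, and Hnrnpdl 2.93 and 3.68. Single arrays of Hnrnpk ran from −2.518 to 2.695. Means below 0 were also found for 19 of 24 Ddx helicases (14 past −0.5). The Snrp genes were split, with 3 past −0.5 and 2 past 0.5 of 7.

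The thymus groups of the 2 lines share no mouse or pool, and 70 genes were measured in both. Across these genes the C3H means and the pool means had a Spearman correlation of 0.49 and a Pearson correlation of 0.58, against 0.14 and 0.12 across 15611 probes, as a description in which genes are not independent and each line contributes 1 wild-type pool. Of the 16 genes lower in C3H thymus, 12 were measured in the pools on at least 4 arrays. All 12 had means below 0 there and 11 were past −0.5, with a median of −1.83. Of those on fewer than 4 arrays, Dhx35 had 1.84, 1.27 and 2.12, and Hnrnpdl 2.93 and 3.68. Hnrnpd had 0.51, −0.67 and 3.51, and Dhx34 −0.05 and −0.35. Of the 58 other genes among the 70, 30 were past −0.5, with a median of −0.52. T cell and thymocyte markers were also low in the pools, with 7 of 9 past −0.5, 1 past 0.5 and a median of −0.69. Past 0.5 were 3 of 5 macrophage, 4 of 8 neuron, 4 of 7 hepatocyte, 3 of 6 oligodendrocyte and 4 of 5 adipocyte markers. So were 0 of 4 B cell, 2 of 4 erythroid and 1 of 5 astrocyte markers. Over all probes 20.0% were past −0.5 and 38.9% past 0.5. Whether these markers account for any of the ratios of the splicing genes was not tested.

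**Figure D5:**
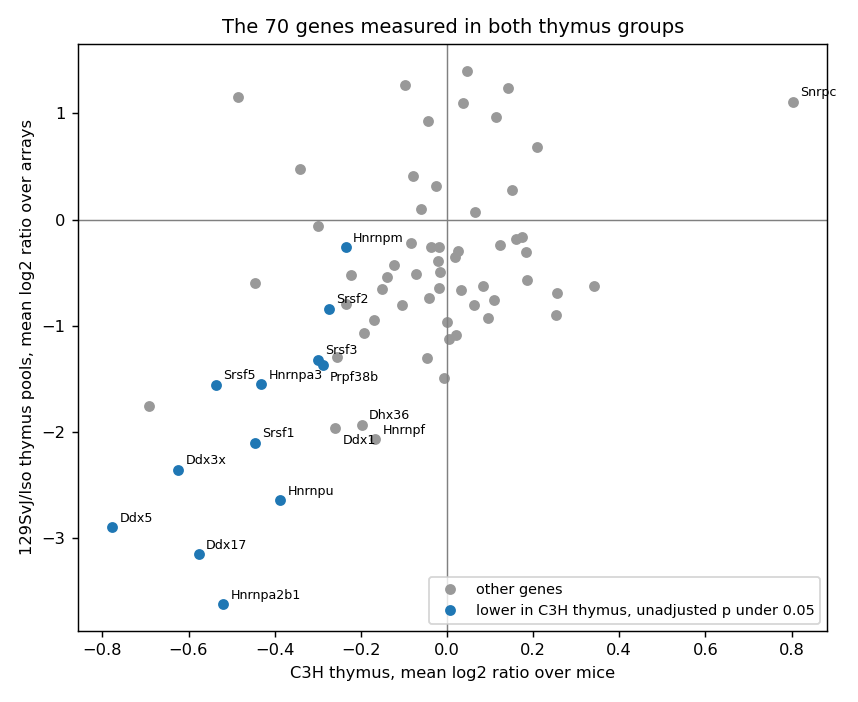
Mean log2 ratio in C3H thymus (x axis, over mice) against that in the 129SvJ/Iso thymus pools (y axis, over technical arrays) for 70 genes, with the 12 genes lower in C3H thymus in blue. The blue points, all means, lie below 0 on both axes, from Hnrnpm near −0.24 and −0.26 to Hnrnpa2b1 at −3.62 on the y axis. Single pool arrays reached above 0 for Srsf2 (0.86), Srsf1 (0.41), Hnrnpa3 (0.10) and Hnrnpm (0.05). The Srsf2 mean of −0.84 rested on its only Cy3 array, at −1.93, with 0.86, 0.10 and −0.21 in Cy5.

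Paralogues such as Ddx5 and Ddx17 or the hnRNP A and B genes are similar in sequence, and whether a cDNA probe also bound transcripts of a related gene was not examined, so their values may not be separate measurements.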

How the data were processed

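The deposited values are log2 ratios per probe and array, made by the authors from 2-colour scans. They were read as Dll1+/- over wild type and as already turned for the dye. Their normalization was not given in the sources used here. Columns of 86 arrays were used. Array medians lay between −0.25 and 0.31. Per array, 19 to 618 spots with 1 constant extreme value (size above 14) were set missing. Its sign was negative on all 44 arrays with heterozygous RNA in Cy3 and positive on all 42 with it in Cy5.

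For each mouse the arrays of 1 dye orientation were averaged first, then the orientations. A probe needed 3 mice with values and was tested against 0 with limma 3.58.1 (R 4.3.3, lmFit and eBayes), and p was adjusted by Benjamini-Hochberg over all probes tested, threshold 0.05, two-sided. Line differences and organ differences (moderated F) were fitted likewise. Thymus pools were described by a size of 0.5 on at least 4 arrays. The scripts were tested on simulated data. The few mice and arrays set the precision, and nothing says whether same-organ samples shared a preparation batch.

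The genes and lists were chosen with earlier results of these data known. Named were, per group, up to 10 genes with the smallest p under 0.05, a value in every mouse and 1 sign, in the pools up to 4 at each end with 1 sign on 6 arrays, 5 per line or organ comparison, and Ddx6 and Srsf5 throughout. From the ribosomal protein list, made by symbol prefix, the S6 kinases and Rps19bp1 were left out after the data had been seen. Further genes complete a count and were named after their values had been seen. Alternatives were another centring, extreme values kept, plain means, 1 dye orientation, averaged probes, complete values, omitted mice, turned signs and the mouse as a block. Mouse identities in the labels pair organs of an animal. Deviations of the same mouse in different organs had a median correlation of 0.00 in C3H and 0.01 in 129SvJ/Iso. Promoters came from RefSeq (GRCm38.p6) by gene identifier, for 72 genes.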

Additional observations from a re-analysis of the deposited data

Results flagged for a closer look

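Among 46 sets of mouse values examined for a sample far from the others, 1 stood apart. Srsf5 in 129SvJ/Iso spleen was 0.543 in mouse 3, while the other 4 mice lay between −0.76 and −0.47. Chance alone flags about 1 in 20 such sets.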

How the results depend on the processing

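Counts are genes at an unadjusted p under 0.05 and medians are over the genes. With 1 mouse left out, the count ranged from 5 to 15 in C3H liver, 12 to 15 in thymus, 2 to 3 in spleen and 4 to 11 in brain. In 129SvJ/Iso it ranged from 3 to 7 in liver, 2 to 3 in spleen and 0 to 2 in brain. Among organs it ranged from 3 to 8 in C3H and 4 to 13 in 129SvJ/Iso, and between lines from 7 to 13 in liver, 0 to 2 in spleen and 0 to 8 in brain. Medians ranged from −0.0671 to −0.0214 in C3H liver, −0.112 to −0.0594 in thymus, −0.114 to −0.0471 in spleen and −0.038 to −0.000375 in brain, and in 129SvJ/Iso from −0.19 to −0.0908 in liver, −0.0987 to 0.0148 in spleen and −0.00658 to 0.0488 in brain. With heterozygous RNA in Cy5 alone C3H thymus had 25 genes and a median of −0.17, 129SvJ/Iso liver 1 gene, 129SvJ/Iso brain 4 genes and a median of 0.158, and C3H brain a median of −0.11. With it in Cy3 alone C3H spleen had 2 genes, C3H brain 12 and a median of 0.0593, 129SvJ/Iso liver and spleen 1 each, and 129SvJ/Iso brain 2 and a median of −0.0587. Plain means over arrays gave 2 genes in C3H spleen and, in 129SvJ/Iso, 2 in liver, 1 in spleen and 0 in brain. Averaged probes gave 3 genes in 129SvJ/Iso liver, 1 in its spleen and a median of −0.356 in the thymus pools, where centring each array gave −0.79. Extreme values kept gave 3 genes in 129SvJ/Iso liver, and values required in every mouse gave 1 in 129SvJ/Iso spleen and 3 for the line difference in spleen. With the mouse as a random block over arrays, C3H liver had 13 genes and 129SvJ/Iso liver 17, spleen 0 and brain 2. With the mouse as a block among organs, which uses the pairing of organs by animal, C3H had 5 genes and 129SvJ/Iso 2. The turned sign gave 7 genes and a median of −0.0894 in 129SvJ/Iso brain. Among 56 pairs of a named gene and a comparison, 5 changed sign under some alternative. Srsf10 in 129SvJ/Iso brain had 0.429 with Cy3 alone and 1.2 with the sign turned. Ddx6 in C3H spleen had 0.198 with Cy3 alone, 0.181 with the sign turned and −0.141 to 0.0217 with 1 mouse left out (above 0 without mouse 1), and in 129SvJ/Iso spleen −0.000875 to 0.367 (below 0 without mouse 3). Srsf5 in C3H brain had −0.102 with Cy5 alone, −0.0553 with averaged probes and −0.055 to 0.0609 with 1 mouse left out (below 0 without mouse 3), and in 129SvJ/Iso brain −0.0447 with averaged probes and −0.157 with the sign turned. The cause of these changes was not tested. Missing values, most frequent in 129SvJ/Iso, and the number of mice limit what could be detected.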
